A study of Mus musculus with 6 samples.

Results

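The genes described are Ifih1, Irf7, Isg15, Ifit1, Ifit2, Ifit3, Oasl1, Rsad2 and Bst2, the 9 of 32285 genes in the count matrices whose symbol stood on a list of type I interferon response genes. Each symbol had 1 row in the matrices. Skin of adult female mice (17-18 weeks old, untreated) was freed of its hypodermis, digested, and sorted into live CD45-positive cells, which are leukocytes, and live CD45-negative cells, which are the other skin cells. The animals were C57BL/6 wild-type mice, UP_Del mice (in which an enhancer upstream of Il2ra, the gene of the interleukin 2 receptor alpha chain, was deleted) without alopecia, and UP_Del mice with alopecia, that is, hair loss. Both UP_Del groups carried the deletion, so the comparison of alopecia with no alopecia is within that genotype. Each group gave 1 droplet library per sort, 6 in all, with single cells read from the 5' end of their transcripts. How many mice went into a library, and whether they were pooled, is not given in the sources used here. With 1 library per group no test between groups was possible, so every interval below is a 95% interval for counting error only and leaves out the spread between animals.

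After filtering, the wild-type, no-alopecia and alopecia libraries held 6307, 3233 and 8837 CD45-positive cells and 3270, 14362 and 4755 CD45-negative cells, with median depths between 4087 and 5605 unique molecular identifiers (UMIs, each a counted RNA molecule) per cell. The filters took away 1.9 to 4.2% of barcodes in the CD45-positive sort, but 26.7%, 7.6% and 30.4% in the CD45-negative sort. Libraries shared 24 to 228 cell barcodes, 0.719 to 2.57% of the smaller library. Cells were clustered in each sort and a cluster was called X-like from fixed marker genes; clusters that met no marker list are called by 2 of their leading genes. Levels are in CPM, the UMIs of a gene scaled to an equal total of UMIs in each class and library, always in the order wild type, no alopecia, alopecia. A level over all cells of a sort cannot tell fewer cells of a type from less RNA per cell. A gene is called higher or lower in a comparison where the fold was at least 1.5 and its 95% interval left out 1, with at least 20 UMIs in the pair of libraries.

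Type I interferons bind 1 receptor, made of the Ifnar1 and Ifnar2 chains, on nearly every cell, and signal through the kinases Jak1 and Tyk2 to a complex of transcription factors. This complex binds the interferon-stimulated response element in front of the induced genes, a site that interferon regulatory factors such as Irf7 also recognise. Many of the induced genes can also be raised through RNA or DNA sensors or by interferon gamma. In skin, the hair follicle is held to be a site of low antigen presentation, and interferon signalling has been studied in alopecia as part of its loss.

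All 9 genes are protein coding in GENCODE vM21 on GRCm38, the mm10 build of the matrices. Ifih1 encodes the cytoplasmic RNA sensor MDA5 (chr2:62595798-62646255, minus strand). Irf7 encodes a transcription factor that drives interferon genes and is itself induced by interferon (chr7:141262706-141266481, minus strand). Isg15 encodes a ubiquitin-like protein that is joined to other proteins (chr4:156199424-156200818, minus strand). Ifit1 (chr19:34640871-34650009), Ifit2 (chr19:34550694-34576419) and Ifit3 (chr19:34583531-34588731), all on the plus strand of 1 cluster, encode proteins that bind viral RNA and each other. Oasl1 encodes a protein related to oligoadenylate synthetases, without their enzyme activity, that holds back translation of Irf7 (chr5:114923240-114937915, plus strand). Rsad2 encodes viperin, an antiviral enzyme (chr12:26442746-26456452, minus strand). Bst2 encodes tetherin, a membrane protein that holds budding virus on the cell surface (chr8:71534255-71537456, minus strand). Ifit3 has a near-identical neighbour, Ifit3b, and reads of the pair may be split or dropped. Oasl1 and Irf7 overlap genes on the opposite strand, so their counts rest on strand being used in counting.

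The 250 bases before the RefSeq start site (GRCm38.p6 tables) were searched for the core of the response element, GAAA, any 2 bases and GAAA again, on both strands. All 9 genes matched the tables, in 10 windows because Ifit2 has 2 start sites. The motif was in the windows of Isg15, Ifit1, Ifit3, Rsad2 and Bst2, and was in 978 of 32851 windows of all genes (2.98%). Its longer form, with CT after the core, in 73 windows of all genes (0.222%), was in those of Bst2, Ifit3 and Ifit1. The motif was not in the windows of Ifih1, Oasl1, Irf7 or Ifit2, which says only that these letters are not there. The windows of 4 members are shown because they carry the motif, and that of Oasl1 because it does not, although Oasl1 was among the members that differed most between libraries. Capitals mark the motif, or on the other strand its reverse, TTTC, any 2 bases and TTTC again, and each window is written 5' to 3' on the gene's own strand.
Isg15, chr4:156200819-156201068, minus strand: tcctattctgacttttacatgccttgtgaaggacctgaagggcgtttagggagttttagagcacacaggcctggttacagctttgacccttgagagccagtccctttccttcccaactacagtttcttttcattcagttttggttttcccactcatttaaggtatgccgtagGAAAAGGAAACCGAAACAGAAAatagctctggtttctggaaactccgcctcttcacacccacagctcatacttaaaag
Ifit1, chr19:34640639-34640888, plus strand: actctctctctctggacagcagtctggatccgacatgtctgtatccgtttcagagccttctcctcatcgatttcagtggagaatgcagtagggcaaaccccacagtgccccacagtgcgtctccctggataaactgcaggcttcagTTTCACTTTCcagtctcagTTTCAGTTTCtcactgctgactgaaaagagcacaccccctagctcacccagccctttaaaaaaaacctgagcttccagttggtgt
Rsad2, chr12:26456453-26456702, minus strand: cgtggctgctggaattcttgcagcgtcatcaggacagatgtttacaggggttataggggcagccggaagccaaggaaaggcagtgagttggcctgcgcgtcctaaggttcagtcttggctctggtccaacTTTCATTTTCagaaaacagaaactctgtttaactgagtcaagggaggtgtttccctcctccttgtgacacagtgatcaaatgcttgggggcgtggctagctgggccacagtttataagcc
Bst2, chr8:71537473-71537722, minus strand: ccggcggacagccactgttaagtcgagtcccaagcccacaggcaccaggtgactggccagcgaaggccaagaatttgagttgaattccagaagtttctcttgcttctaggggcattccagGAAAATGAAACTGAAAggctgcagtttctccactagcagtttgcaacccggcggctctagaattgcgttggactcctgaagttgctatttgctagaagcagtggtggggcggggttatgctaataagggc
Oasl1, chr5:114922990-114923239, plus strand: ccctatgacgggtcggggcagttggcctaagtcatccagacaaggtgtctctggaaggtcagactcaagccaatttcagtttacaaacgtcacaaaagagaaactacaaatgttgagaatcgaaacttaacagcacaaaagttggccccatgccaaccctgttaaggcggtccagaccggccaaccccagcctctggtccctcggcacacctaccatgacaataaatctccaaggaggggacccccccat
Isg15 had 3 overlapping copies, starting 78, 72 and 66 bases before the start site. Bst2 had 2 overlapping copies at 130 and 124 bases, Ifit1 had 2 at 104 and 85 bases, and Rsad2 had 1 at 120 bases. Members with the motif (Isg15, Ifit1 and Rsad2) and without it (Ifih1 and Oasl1) were both among those lower in the deletion libraries of the myeloid classes described below.

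Over all CD45-positive cells, wild-type skin held the highest levels of the RNA sensor, of Oasl1, of Rsad2 and of Ifit1, and the 2 deletion libraries were alike for most members. Oasl1 stood at 18.0, 2.96 and 3.49 CPM, Rsad2 at 10.5, 1.58 and 2.80 CPM, Ifit1 at 9.96, 3.21 and 2.32 CPM, and Ifih1 at 20.4, 10.4 and 10.7 CPM. Isg15 fell in smaller steps, from 70.6 to 53.5 and 40.0 CPM. Irf7 (23.8, 22.3 and 17.9 CPM) and Bst2 (86.2, 79.0 and 96.0 CPM) lay within 1.5-fold of each other in the 3 libraries, and Ifit2 (2.29, 2.25 and 2.04 CPM) and Ifit3 (1.61, 1.58 and 0.998 CPM) were scarce.

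Against wild type, 4 of the 9 members were lower in the no-alopecia library, where 5.3% of all genes tested were called lower. These were Oasl1, 6.08-fold lower (4.65 to 8.10), Rsad2, 6.62-fold (4.59 to 9.88), Ifit1, 3.10-fold, and Ifih1, 1.96-fold. In the alopecia library 6 of 9 were lower, against 4.02% of all genes. The folds were 5.16 for Oasl1, 3.74 for Rsad2, 4.29 for Ifit1, 1.91 for Ifih1, 1.77 for Isg15 and 1.61 for Ifit3. The 2 comparisons share the wild-type library, so they are not separate evidence. Counting each cell at most 1 UMI per member ended the calls of Ifih1 in both comparisons, with log2 ratios of -0.33 and -0.26, and of Ifit3. Between the deletion libraries only Rsad2 was called, 1.77-fold higher with alopecia (1.19 to 2.71; background 6.87% higher), and not when a cell was counted at most 1 UMI (log2 ratio 0.32). The summed level of the 9 members was 243, 177 and 176 CPM, a log2 ratio of -0.46 (-0.52 to -0.40) and -0.47 (-0.51 to -0.42) against wild type, under the 1.5-fold step. The sum is carried mostly by Bst2 and Isg15.

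**Figure D1:**
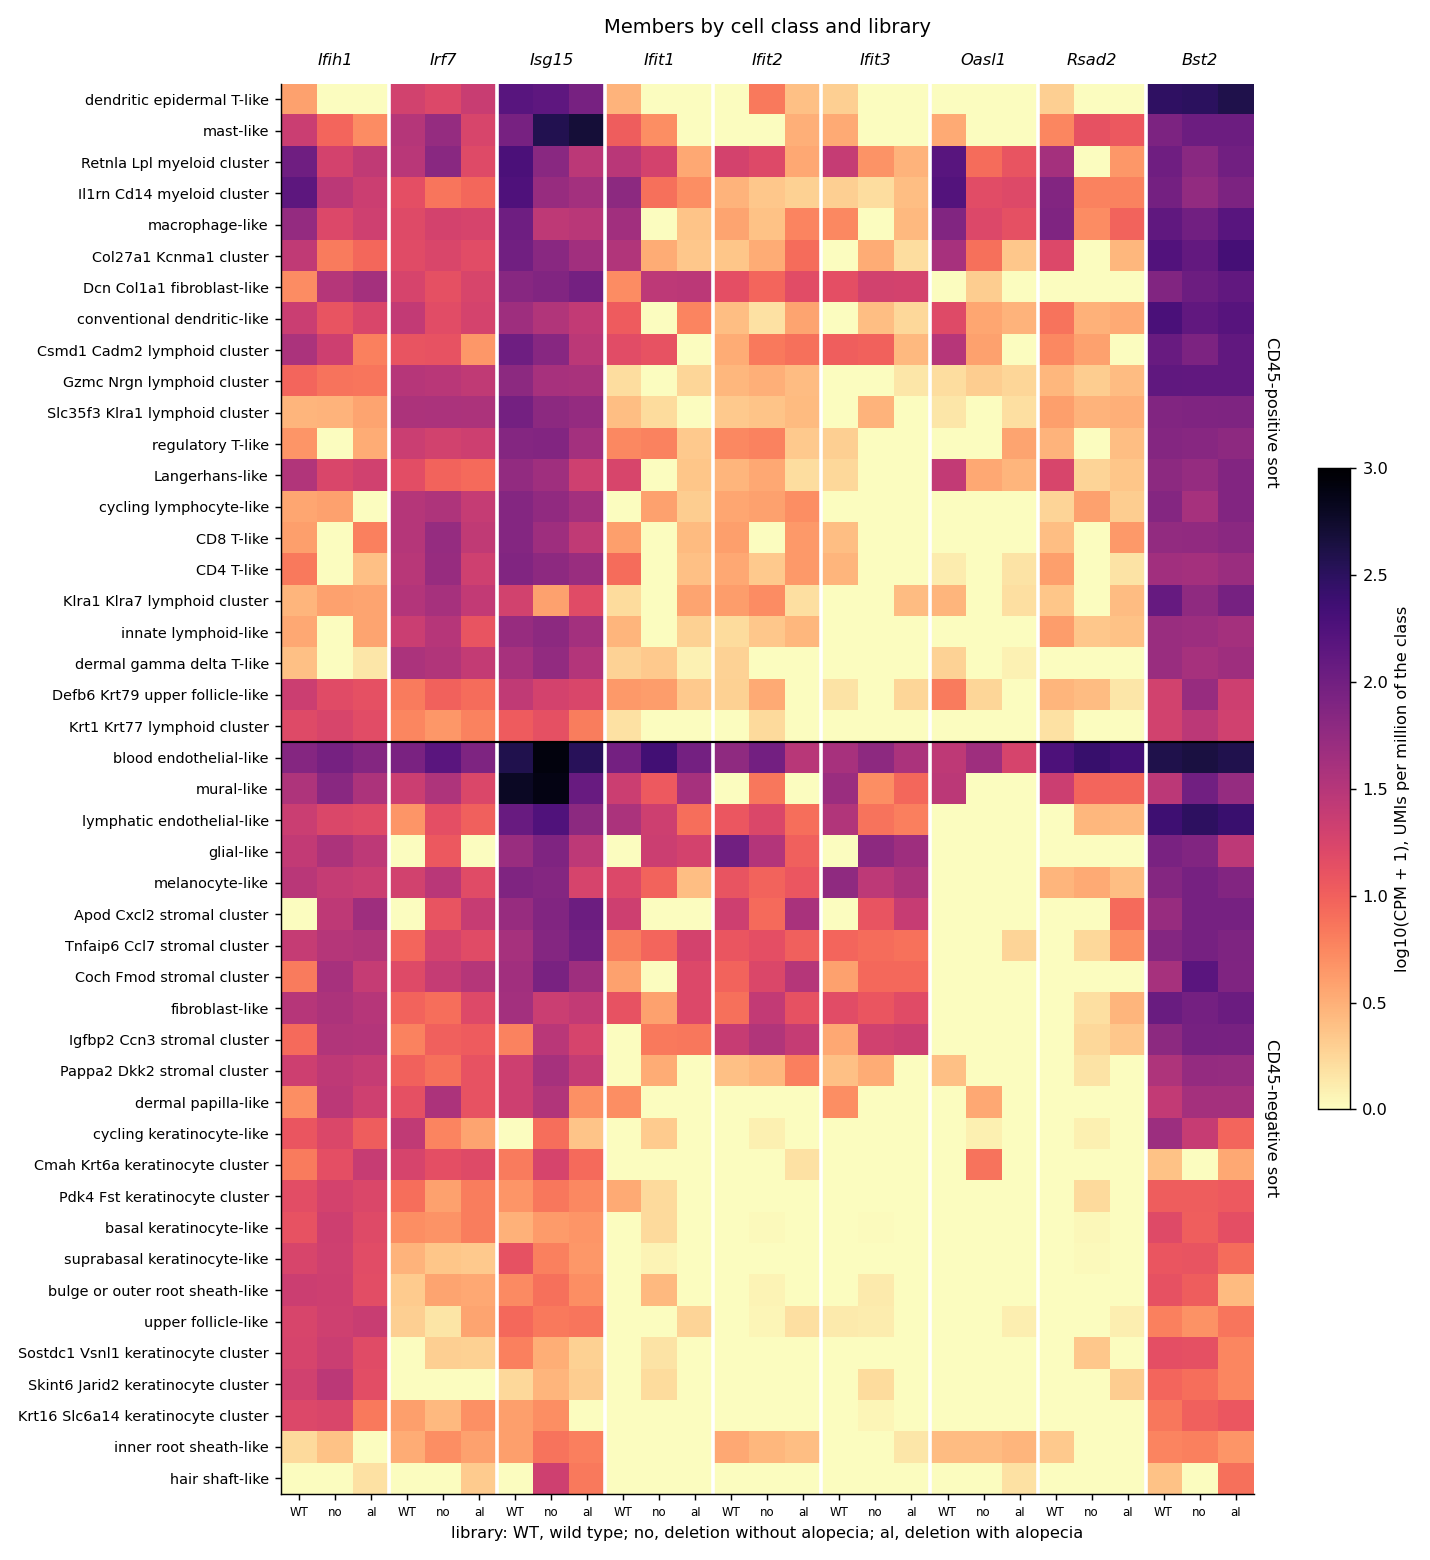
Level of each of the 9 members, as log10(CPM + 1), in each cell class (rows, by sort) and library (columns in threes: wild type, no alopecia, alopecia). Blood endothelial-like cells are high for every member, and Oasl1 and Rsad2 are seen mainly in that class and in wild-type myeloid classes.

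Over all CD45-negative cells the members differed little between groups. Isg15 stood at 30.5, 30.2 and 23.2 CPM, Bst2 at 37.0, 31.1 and 35.9 CPM, Ifih1 at 15.4, 21.5 and 17.0 CPM, Rsad2 at 6.56, 4.76 and 6.05 CPM, and Irf7 at 7.16, 6.92 and 8.05 CPM. Ifit1 (5.18, 5.28 and 5.05 CPM) and Ifit2 (4.66, 3.83 and 3.39 CPM) were not called either. Only Ifit3 (4.70, 2.59 and 3.83 CPM) and Oasl1 (1.42, 0.908 and 0.889 CPM) were called, both lower without alopecia than in wild type, 1.82-fold and 1.57-fold. There 22.2% of all genes were called lower and the median gene had a log2 ratio of -0.23, and neither call held after trimmed-mean scaling (log2 ratios -0.57 and -0.36). The sum of the members was 113, 107 and 103 CPM.

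The classes were ranked by the mean level over the 3 libraries, given here with the lowest and highest library. In the CD45-positive sort Oasl1 was highest in the Il1rn Cd14 myeloid cluster (64.3 CPM, 13.7 to 164), the Retnla Lpl myeloid cluster (57.1, 7.36 to 152) and macrophage-like cells (34.3, 12.5 to 75.0), and Ifih1 and Rsad2 were highest in the same 3 classes. Bst2 was highest in dendritic epidermal T-like cells (335, 303 to 389), above the next class, a cluster led by Col27a1 and Kcnma1 (169, 127 to 209), in every library. Isg15 was highest in mast-like cells (315, 88.0 to 484), whose range overlaps that of dendritic epidermal T-like cells (126, 89.1 to 151). Irf7 had no class apart, with CD8 T-like cells at 36.6 CPM (25.6 to 53.1) and the Retnla Lpl cluster at 36.4 (14.6 to 66.2). In the CD45-negative sort Rsad2 stood at 222 CPM (186 to 265) in blood endothelial-like cells and at 12.3 (8 to 20.8) in the next class, mural-like cells, with no overlap. Ifih1, Irf7, Ifit1 and Bst2 had no overlap between blood endothelial-like cells and the next class either. For Isg15, blood endothelial-like (517, 334 to 835) and mural-like cells (502, 116 to 765) overlap, as do the first 2 classes for Ifit2, Ifit3 and Oasl1.

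In CPM, the largest wild-type excesses of Oasl1, Ifih1 and Rsad2 lay in myeloid classes. A cluster led by Il1rn and Cd14, which met no marker list by name, had 298, 247 and 551 cells. In it wild-type cells exceeded both deletion libraries in 5 members. Oasl1 stood at 164, 13.7 and 15 CPM, on 330, 22 and 48 UMIs. Ifih1 stood at 140, 27.4 and 21 CPM, on 281, 44 and 67 UMIs. Rsad2 stood at 72.6, 4.98 and 5.01 CPM, on 146, 8 and 16 UMIs. In each of the 3 genes the wild-type library was high and the 2 deletion libraries were low and close to each other. Isg15 (180, 50.5 and 41.9 CPM) and Ifit1 (61.1, 6.85 and 4.07 CPM) had the same order of wild type over deletion. Bst2 differed less, at 94.0, 55.4 and 81.6 CPM, and Irf7, with 12.9, 6.23 and 8.13 CPM, was not called. Ifit2 and Ifit3 were at or below 1.99 CPM in every library.

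Without alopecia, 6 of the 7 members with enough UMIs in this cluster were lower than in wild type, against 9.26% of all genes. The folds were 14.6 for Rsad2 (7.20 to 34.4), 12 for Oasl1 (7.77 to 19.4), 8.92 for Ifit1 (4.82 to 18.3), 5.10 for Ifih1 (3.70 to 7.17), 3.57 for Isg15 (2.80 to 4.60) and 1.69 for Bst2 (1.31 to 2.21). With alopecia, 5 of 7 were lower than in wild type, against 6.25% of all genes. The folds were 15 for Ifit1 (8.47 to 29.0), 14.5 for Rsad2 (8.63 to 26), 10.9 for Oasl1 (8.05 to 15.1), 6.66 for Ifih1 (5.09 to 8.84) and 4.29 for Isg15 (3.51 to 5.27). Between the deletion libraries none of 7 was called, where 6.52% of all genes were higher and 2.52% lower, and the sum differed by 0.10 on the log2 scale (-0.11 to 0.32). The summed level was 727, 167 and 179 CPM, 4.36-fold (3.82 to 4.98) and 4.06-fold (3.68 to 4.48) lower than in wild type.

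Several other values moved with these differences. Myeloid cells do not make the T-cell receptor or its CD3 chains, yet cells with at least 3 UMIs of these genes were 56.7%, 42.5% and 43.0% of the cluster. Without them (129, 142 and 314 cells left) the sum was 800, 143 and 144 CPM. Oasl1 was 242, 14 and 20.3 CPM and Ifih1 was 225, 29.5 and 26.8 CPM, so the differences in the sum, Oasl1 and Ifih1 were as large. Rsad2 was 16.8, 8.42 and 2.44 CPM in those cells. It fell under the minimum of 20 UMIs in both comparisons with wild type, so its calls could not be made there. Bst2 was no longer called. At finer resolution its largest part held 53.4%, 60.7% and 52.5% of the cells, with sums of 643, 175 and 151 CPM. The second part, 26.5%, 12.96% and 21.2% of the cells, had sums of 971, 194 and 256 CPM and is the finer cluster that also holds 97.3 to 100% of the macrophage-like cells. Another part with 10.4%, 17.8% and 12.7% of the cells had 324, 148 and 153 CPM, and the wild-type library was highest in each of these. When a cell counted at most 1 UMI per member, the sums were still called, with log2 ratios of -1.30 and -1.07 against wild type in place of -2.12 and -2.02. A list of dissociation stress genes summed to 14040, 11085 and 13339 CPM, and median depth was 5640.5, 5266 and 4493 UMIs; their part in the result was not tested.

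The members' UMIs sat in few cells. Oasl1 had a UMI in 89, 9 and 28 cells, of which 23, 2 and 2 cells had 5 or more, with up to 26 UMIs in a wild-type cell. Dendritic epidermal T-like cells had no Oasl1 UMI in any library, at median depths of 3240 to 4073 UMIs, whereas some other lymphoid classes had a little. Whether free RNA added to the Oasl1 counts was not tested. With every cell thinned to 1000 UMIs, Oasl1 was in 12.1% (35 of 290; exact Clopper-Pearson interval 8.55 to 16.4%), 0.855% (2 of 234; 0.104 to 3.05%) and 0.942% (5 of 531; 0.306 to 2.18%) of the cluster's cells, and the unthinned shares were 29.9%, 3.64% and 5.08%. At that depth 3.79% of wild-type cells (11 of 290; 1.91 to 6.69%) had UMIs of at least 3 members, against 0 of 234 cells without alopecia (up to 1.56%) and 0 of 531 with alopecia (up to 0.692%). Unthinned, such cells made up 27.9%, 4.45% and 5.08% of the cluster and held 76.6%, 35.1% and 29.0% of the members' UMIs. Among the 35 wild-type cells with an Oasl1 UMI after thinning, Ifih1 was in 31.4%, Isg15 in 28.6% and Ifit1 in 14.3%, compared with 6.67%, 10.2% and 1.96% of the 255 cells without one. Bst2 did not follow Oasl1 in this way, with 2.86% and 5.88%.

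**Figure D2:**
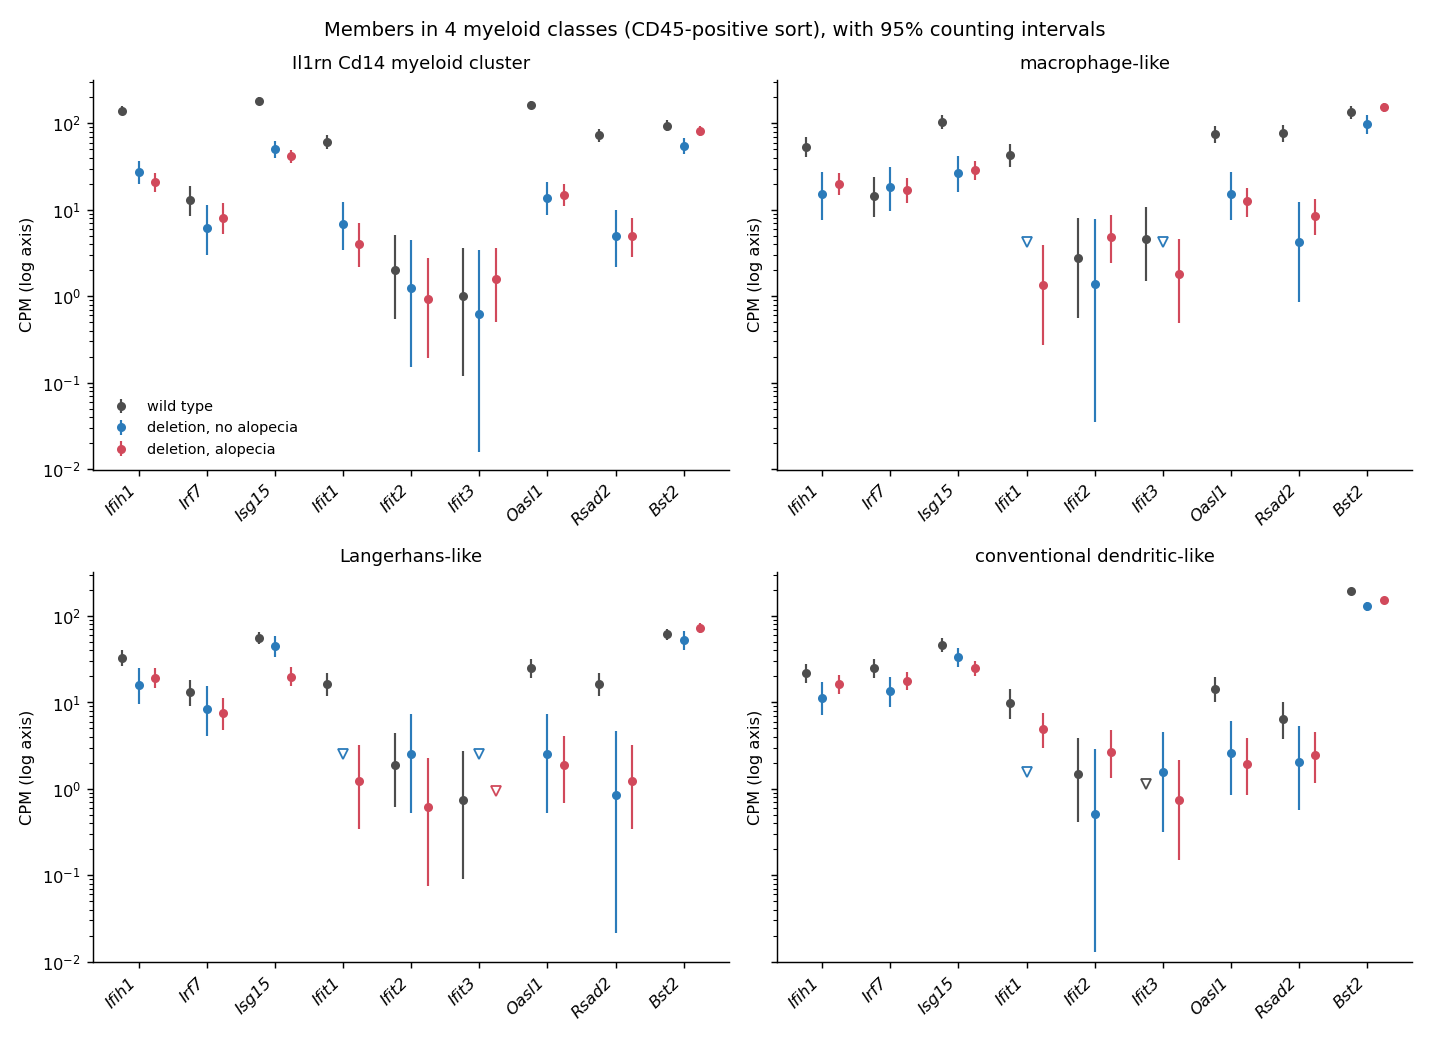
Level of each member in CPM (log axis) in 4 myeloid classes of the CD45-positive sort; points are the 3 libraries and bars are 95% counting intervals. In the Il1rn Cd14 cluster and the macrophage-like class the wild-type points for Ifih1, Isg15, Ifit1, Oasl1 and Rsad2 lie above both deletion libraries, while Bst2 and Irf7 lie closer together than these.

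Macrophage-like cells, which expressed all 16 macrophage markers above the whole sort, had the same order in 185, 116 and 477 cells. Rsad2 stood at 76.8, 4.19 and 8.47 CPM (84, 3 and 19 UMIs), Oasl1 at 75.0, 15.4 and 12.5 CPM, and Ifit1 at 43.0, 0 and 1.34 CPM (47, 0 and 3 UMIs). Ifih1 was at 53.9, 15.4 and 20.1 CPM, Isg15 at 104, 26.5 and 28.5 CPM, Bst2 at 134, 97.8 and 153 CPM and Irf7 at 14.6, 18.2 and 16.9 CPM. Both comparisons with wild type had 5 of 7 measured members lower, against 5.85% of all genes without and 7.21% with alopecia. Without alopecia Rsad2 was 18.3-fold lower (6.06 to 90.7), Oasl1 4.88-fold (2.59 to 10.2), Isg15 3.93-fold and Ifih1 3.51-fold. Ifit1 was 10.3-fold lower with the library at 0 set to a floor of 3 UMIs, an estimate rather than a bound. With alopecia Ifit1 was 32.1-fold lower (10.3 to 161), Rsad2 9.06-fold (5.46 to 15.8), Oasl1 6.00-fold (3.87 to 9.58), Isg15 3.65-fold and Ifih1 2.69-fold. Bst2 was the only member called between the deletion libraries, 1.56-fold higher with alopecia (1.21 to 2.05; background 6.35% higher). The sum was 509, 179 and 248 CPM. Cells with T-cell receptor complex RNA were 67.6%, 64.7% and 53.5% of the class. Without them, in 60, 41 and 222 cells, the sum was 1014, 159 and 238 CPM, the call of Ifih1 with alopecia was lost (log2 ratio -0.66) and so was that of Bst2. When a cell counted at most 1 UMI per member the sum was lower by 0.85 and 0.59 on the log2 scale, still called. After thinning, 3 or more members were in 4.73% (8 of 169), 0% (0 of 111; up to 3.27%) and 0.463% (2 of 432) of cells.

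A cluster led by Retnla and Lpl had 81, 45 and 362 cells, too few for ratios. Oasl1 stood at 152, 7.36 and 11.6 CPM, Ifih1 at 101, 18.4 and 25.6 CPM, Isg15 at 189, 66.2 and 28.2 CPM and Rsad2 at 41.3, 0 and 3.52 CPM. Irf7 had another order, 28.4, 66.2 and 14.6 CPM. The sum, 682, 261 and 190 CPM, was again highest in wild type.

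Langerhans-like cells, the dendritic cells of the epidermis, were 247, 128 and 348 cells. Isg15 stood at 55.5, 45 and 19.97 CPM, Ifih1 at 32.6, 16.1 and 19.3 CPM, Oasl1 at 24.8, 2.55 and 1.87 CPM, Ifit1 at 16.5, 0 and 1.25 CPM and Rsad2 at 16.5, 0.849 and 1.25 CPM, whereas Bst2 stood at 61.5, 52.6 and 73.0 CPM. Against wild type 4 of 7 members were lower without alopecia (background 4.93%) and 6 of 7 with alopecia (5.92%). Isg15 was also 2.25-fold lower with than without alopecia, 1 of 4 measured members (4.42%). The sum of 223, 128 and 125 CPM was 1.74-fold (1.46 to 2.10) and 1.79-fold (1.57 to 2.04) lower. In this class the result moved with T-cell RNA. Without the cells that had it, 72, 46 and 149 cells were left, wild-type Oasl1 was 2.16 CPM, wild-type Ifit1 and Rsad2 were at 0, the sum was 104, 55.7 and 93.3 CPM, and the alopecia ratio was no longer called (log2 -0.16, -0.69 to 0.39).

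In conventional dendritic-like cells (378, 307 and 777 cells) the members called were fewer in UMIs. Oasl1 was at 14.3, 2.59 and 1.96 CPM, Ifit1 at 9.79, 0 and 4.90 CPM, Rsad2 at 6.40, 2.07 and 2.45 CPM and Bst2 at 194, 130 and 155 CPM. Against wild type 5 of 7 were lower without alopecia (background 5.43%) and 4 of 7 with alopecia (5.27%). The call of Oasl1 was kept in both comparisons under each of the alternatives that gave it an interval, whereas those of Ifih1, Rsad2 and Isg15 were each lost under at least 1. The sum was 319, 195 and 227 CPM, 1.64-fold lower without alopecia (1.45 to 1.85), and not called when a cell counted at most 1 UMI per member (log2 -0.45). Ifit1 was called 3.15-fold higher with than without alopecia (1 of 5 measured members; background 4.73%), a direction that turned at finer resolution (log2 -0.37). The no-alopecia library had no Ifit1 UMI and was set to the floor of 3 UMIs, so the fold is an estimate, not a bound. Ifit1 met the minimum of UMIs only through the alopecia library, so this call supports nothing further.

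Over the CD45-positive classes large enough to compare, Oasl1 was lower than in wild type in 4 of the 4 classes where it could be measured without alopecia and in 5 of 5 with alopecia, and Rsad2 in 4 of 4 and 4 of 4. Ifih1 was lower in 5 of 7 and 6 of 10 classes and higher in 1 each. Isg15 was lower in 5 of 14 and 11 of 18 and higher in 1 each. Bst2 was lower in 2 of 14 and 0 of 18. Over these classes 3.01 to 9.26% of all genes were lower without alopecia and 2.52 to 7.21% with alopecia. Passing the minimum of 20 UMIs often rested on the wild-type library itself, so the counts for Oasl1 and Rsad2 describe those classes and support nothing further. The same limit holds for Ifit1 in the macrophage-like, Langerhans-like and conventional dendritic-like classes, where the no-alopecia library had no Ifit1 UMI. Its call there is part of the counts of members lower without alopecia.

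Mast-like cells showed the opposite order in a single gene. Isg15 was at 88.0, 372 and 484 CPM on 37, 91 and 229 UMIs in 168, 136 and 257 cells, 4.22-fold (2.85 to 6.37) and 5.50-fold (3.88 to 8.02) higher than in wild type. It was 1 of 3 measured members called higher in each comparison (background 3.67% and 4.1%). Bst2, at 80.9, 106 and 106 CPM, was not called, and Irf7, at 30.9, 53.1 and 16.9 CPM, was 3.14-fold lower with than without alopecia (background 5.12% lower). The other members lay between 0 and 21.4 CPM. The sum was 240, 555 and 624 CPM, 2.31-fold (1.77 to 3.02) and 2.60-fold (2.07 to 3.29) higher. The extra Isg15 UMIs lay in few cells. Isg15 had a UMI in 23, 28 and 49 cells, 1, 4 and 12 cells had 5 or more, and these held 13.5%, 56.0% and 73.4% of the UMIs, with up to 46 in a cell. When each cell counted at most 1 UMI per member, the sums were no longer called (log2 0.56 and 0.20). The finer cluster that held 99.6 to 100% of the class had sums of 240, 555 and 628 CPM. When every finer cluster, also those left unnamed here, took the named class of its best marker score, the log2 ratios were 0.62 and 0.69. Of the cells with Isg15 after thinning, 0 of 7, 1 of 14 and 2 of 20 had another member. The class had median depths of 1395.5, 1200 and 1095 UMIs, and the stress list summed to 49976, 48694 and 44554 CPM; their part was not tested.

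Dendritic epidermal T-like cells had the highest summed level of the 21 CD45-positive classes ranked, and it rested on Bst2 and Isg15. Bst2 was at 303, 314 and 389 CPM, with a UMI in 55.5%, 55.7% and 60.4% of 265, 115 and 391 cells. Isg15 was at 151, 138 and 89.1 CPM, 1.69-fold lower with alopecia than in wild type (background 4.2% lower) and 1.55-fold lower than without alopecia (3.69%). The class was made up of 3 finer clusters in unequal shares. The one richest in Isg15 was 38.5%, 36.5% and 21.7% of its cells and had Isg15 at 223, 203 and 246 CPM, not lower with alopecia, whereas the others had 90.5, 128 and 41.7 CPM and 92.9, 80.1 and 39.7 CPM. Irf7 was at 18.5, 15.5 and 22.1 CPM and Oasl1 at 0 in all 3 libraries. The sums of 479, 474 and 502 CPM lay close together, so this class shared neither the wild-type excess of the myeloid classes nor their Oasl1.

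The other lymphoid classes held mainly Bst2, Isg15 and Irf7 and little Oasl1 or Rsad2, at most 2.72 and 3.41 CPM in any of the 7 classes named here. In CD4 T-like cells (864, 201 and 600 cells) Irf7 was at 29.7, 51.1 and 19.8 CPM. It was higher without alopecia than in wild type (background 4.35%) and lower with alopecia than in either (2.79% and 4.22%). Ifih1 and Ifit1, at 5.82 and 7.21 CPM in wild type, had no UMI in the no-alopecia library and 3 UMIs each with alopecia. Both were called lower in both comparisons with wild type (3.94% without alopecia). They met the minimum of 20 UMIs only through the wild-type library, so these calls support nothing further. In regulatory T-like cells (532, 223 and 775 cells) Isg15 was at 70.8, 72.9 and 42.3 CPM, lower with alopecia than in wild type (2.52%) and than without alopecia (3.26%). CD8 T-like cells had Isg15 at 70.8, 45.5 and 25.6 CPM, lower with alopecia than in wild type (3.81%). In dermal gamma delta T-like cells Irf7 (36.8, 32.7 and 24 CPM) was lower with alopecia than in wild type (4.21%) and Isg15 (38.6, 54.8 and 32.2 CPM) lower than without alopecia (4.16%). Innate lymphoid-like cells had Irf7 at 21.5, 29.95 and 11.4 CPM, lower with alopecia than in wild type (3.99%) and than without alopecia (3.28%). A cluster led by Gzmc and Nrgn (Isg15 at 62.8, 38.5 and 37.8 CPM; 3.59% and 2.74%) and one led by Slc35f3 and Klra1 (93.5, 61.6 and 53.7 CPM; 3.01% and 2.57%) had Isg15 lower than wild type in both deletion libraries.

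Among the remaining CD45-positive classes, the cluster led by Col27a1 and Kcnma1 (101, 95 and 228 cells) had 4 of 6 measured members lower with alopecia than in wild type (background 4.78%), with Oasl1 at 38.3, 6.89 and 1.22 CPM and Ifit1 at 33.2, 2.30 and 1.22 CPM. By fold its Oasl1 difference, 31.3-fold (7.95 to 270.4), was above those of the Il1rn Cd14 and macrophage-like classes, on 2 UMIs with alopecia, and 97.8 to 98.9% of its cells had T-cell receptor complex RNA. An upper follicle-like class of this sort had 2 of 4 lower (6.02%), Ifih1 (20.9, 14.3 and 12.4 CPM) and Isg15 (25.6, 18.2 and 16.3 CPM). A small cluster led by S100a9 and Chil3, genes of neutrophils and monocytes, did not have this order of wild type over alopecia. With 36, 12 and 73 cells it allowed no ratio. For its Oasl1 (52.1, 0 and 76.8 CPM on 13, 0 and 28 UMIs), Rsad2 (40.0, 0 and 41.2 CPM) and Ifih1 (64.1, 13.7 and 35.7 CPM) the counting intervals of wild type and alopecia overlapped.

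In the CD45-negative sort, blood endothelial-like cells, which line blood vessels, had, by the mean over the 3 libraries, the highest level of each of the 9 members among the 24 classes ranked. They were 198, 531 and 252 cells, detected 11 or 12 of 13 endothelial markers, and 0 to 0.188% of them had T-cell receptor RNA. Isg15 stood at 380, 835 and 334 CPM on 291, 1419 and 307 UMIs, Ifit1 at 92.8, 225 and 92.6 CPM, and Irf7 at 83.6, 149 and 79.5 CPM. In these the no-alopecia library was high and the other 2 were level. The no-alopecia library was also highest for Ifit2 (58.8, 95.3 and 29.4 CPM), Ifit3 (39.2, 59.4 and 37.0 CPM) and Oasl1 (26.1, 45.9 and 17.4 CPM). Of these only Ifit3 was level in the other 2. Ifit2 was called lower with alopecia than in wild type, and Oasl1 was lower there without a call. Rsad2 (186, 265 and 216 CPM), Ifih1 (69.3, 91.8 and 70.8 CPM) and Bst2 (388, 437 and 387 CPM) were also highest without alopecia but were not called in any comparison. As background for shares of cells, Rsad2 had a UMI in 31.3%, 34.1% and 33.7% of these cells and in 0, 3 and 0 basal keratinocyte-like cells of 122, 2903 and 338, whose median depths were 9662 to 12046 UMIs.

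With alopecia, 6 of the 9 members in blood endothelial-like cells were lower than without it, where 8.13% of all genes were lower and 11.4% higher. The folds were 3.24 for Ifit2 (2.15 to 5.07), 2.63 for Oasl1 (1.52 to 4.83), 2.50 for Isg15 (2.21 to 2.83), 2.43 for Ifit1 (1.92 to 3.11), 1.87 for Irf7 (1.44 to 2.46) and 1.61 for Ifit3 (1.08 to 2.44). Against wild type, 5 of 9 were higher without alopecia (background 4.8%): Ifit1 2.42-fold (1.88 to 3.17), Isg15 2.20-fold (1.93 to 2.50), Irf7 1.78-fold (1.35 to 2.38), Oasl1 1.76-fold (1.06 to 3.03) and Ifit2 1.62-fold (1.16 to 2.31). Both sets of calls rest on the 1 no-alopecia library. Between alopecia and wild type only Ifit2 was called, 2.00-fold lower (1.21 to 3.35; background 3.89%), and the sum of 1263 against 1324 CPM was 1.05-fold lower (0.962 to 1.14). The sum without alopecia was 2203 CPM, 1.66-fold (1.55 to 1.79) above wild type and 1.74-fold (1.63 to 1.86) above alopecia.

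These endothelial differences depended on how the class was drawn. It joined 2 finer clusters, the larger of which held 69.7%, 91.5% and 52.4% of its cells. Within the larger the sum was 1397, 2243 and 1527 CPM and the alopecia ratio was not called (log2 -0.56); within the smaller it was 1108, 1915 and 900 CPM (log2 -1.09). Keeping doublets ended the call against wild type (log2 0.40). Giving every finer cluster, also unnamed ones, the named class of its best marker score ended it as well (log2 0.42). That renaming also ended the call between the deletion libraries (log2 -0.49). Counting at most 1 UMI per member and cell ended both calls (log2 0.49 and -0.51). The order with no alopecia highest held in each. The dissociation stress list summed to 18534, 21957 and 11352 CPM, highest without alopecia as the members' sum was. Wild type and alopecia differed more in the stress list than in the members' sum, and the list's part was not tested. Cells with several members were also counted, with no expected share for independent members beside them. After thinning, 8.65% (16 of 185; 5.02 to 13.7%), 17.8% (89 of 500; 14.5 to 21.4%) and 7.42% (17 of 229; 4.38 to 11.6%) of cells had UMIs of at least 3 members. Unthinned, such cells made up 31.8%, 40.5% and 31.3% of the class and held 77.3%, 85.1% and 74.7% of the members' UMIs.

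**Figure D3:**
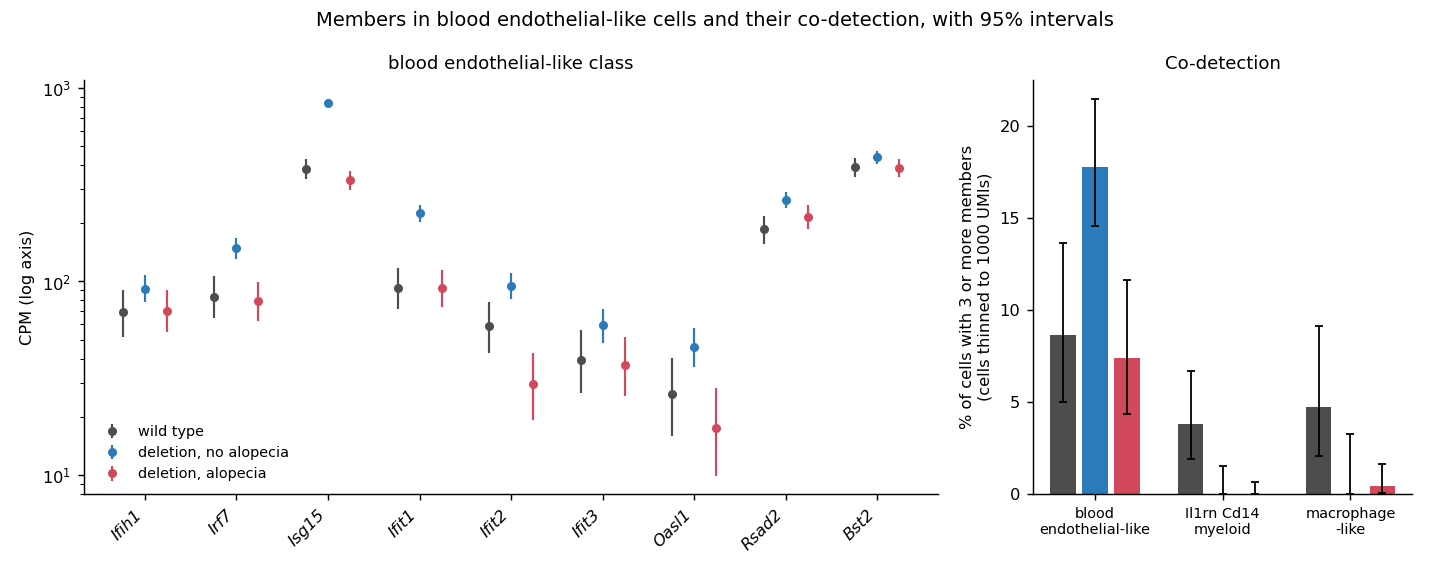
Left, level of each member in CPM (log axis) in blood endothelial-like cells of the 3 libraries, with 95% counting intervals. Right, percent of cells thinned to 1000 UMIs that had at least 3 members, with exact binomial intervals, in blood endothelial-like cells, highest in the no-alopecia library, and in the Il1rn Cd14 cluster and macrophage-like cells, highest in wild type.

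Other vessel and nerve cells differed in which members they held. Venular blood endothelial-like cells (17, 157 and 35 cells) had Bst2 at 213, 259 and 224 CPM and Isg15 at 288, 180 and 394 CPM, but Rsad2 at only 9.28, 4.68 and 7.22 CPM. Mural-like cells, the muscle cells and pericytes around vessels (29, 161 and 42 cells), had Isg15 at 625, 765 and 116 CPM with Bst2 at 27.8, 97.9 and 52.0 CPM. Isg15 had a UMI in 12, 66 and 16 mural-like cells. Of these, 3, 25 and 1 cells had 5 or more and held 75.6%, 81.1% and 24.1% of its UMIs. Lymphatic endothelial-like cells (68, 348 and 130 cells) had Bst2 at 233, 307 and 253 CPM and Isg15 at 117, 173 and 62.4 CPM, the latter 2.78-fold lower with than without alopecia (background 5.27% lower). Their sum was 455, 553 and 360 CPM. Glial-like cells (42, 158 and 52 cells) had a sum of 261, 311 and 155 CPM and Ifit2 at 99.2, 31.8 and 9.12 CPM.

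Melanocyte-like cells, the pigment cells (184, 360 and 144 cells), had Isg15 at 77.5, 71.2 and 17.0 CPM. With alopecia this was lower by 2.18 on the log2 scale than in wild type (background 5.19% lower) and by 2.06 than without alopecia (5.74%). Ifit3 was at 58.6, 27 and 35.6 CPM, lower without alopecia than in wild type (5.29%), and the sum was 283, 259 and 175 CPM. Fibroblast-like cells of this sort (259, 942 and 478 cells) had level sums of 225, 198 and 222 CPM within which members moved in opposite ways. Ifit1, at 11.9, 2.87 and 15.2 CPM, was lower without alopecia than in wild type (background 6.23% lower) and 5.28-fold higher with alopecia than without (5.12% higher). Ifit2, at 6.81, 24.7 and 12.3 CPM, was 3.63-fold higher without alopecia than in wild type (6.25% higher) and lower with alopecia than without (4.97% lower). Isg15 was at 42.6, 21.8 and 24.7 CPM, lower than in wild type in both deletion libraries (background 4.3% lower with alopecia). In a stromal cluster led by Tnfaip6 and Ccl7 (294, 921 and 365 cells), Isg15 stood at 40.0, 71.0 and 97.7 CPM and Ifit1 at 5.58, 8.38 and 18.2 CPM. Both were higher with alopecia than in wild type (2.44-fold and 3.26-fold; background 2.79% higher). Isg15, with Irf7 (8.37, 17.8 and 14.1 CPM), was higher without alopecia than in wild type (4.96%), and Ifit1 was higher with than without alopecia (3.42%). A stromal cluster led by Pappa2 and Dkk2 had a sum of 89.3, 135 and 117 CPM, higher without alopecia than in wild type by 0.59 on the log2 scale.

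A fibroblast-like class in the CD45-positive sort (101, 255 and 181 cells, led by Dcn and Col1a1) had the opposite order to the myeloid classes, although the sort was meant to leave fibroblasts out. Ifih1 was at 4.28, 31.1 and 41.1 CPM on 2, 30 and 27 UMIs, 7.26-fold (1.84 to 62.7) and 9.60-fold (2.41 to 83.3) higher than in wild type. Ifit1 was at 4.28, 26.9 and 27.4 CPM, 6.30-fold (1.58 to 54.7) and 6.40-fold (1.53 to 56.9) higher. These were the 2 of 6 measured members called higher without alopecia (background 2.87% higher). With alopecia Bst2 (74.9, 106 and 131 CPM) was called as well, 3 of 4 measured members (5.89%). Ifih1 and Ifit1, with 2 wild-type UMIs each, met the minimum of 20 UMIs mainly through the deletion libraries, so their calls support nothing further. The sum was 193, 279 and 342 CPM. A lymphoid cluster led by Klra1 and Klra7 (318, 141 and 418 cells) had Isg15 at 19, 2.87 and 14.2 CPM and Bst2 at 119, 58.9 and 91.4 CPM, both lower without alopecia than in wild type (background 3.84%) and higher with alopecia than without (2.72%).

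Keratinocytes were low in nearly all members except the RNA sensor. Basal keratinocyte-like cells had Ifih1 at 11.8, 20.1 and 14.3 CPM, Bst2 at 14.5, 9.40 and 13 CPM, and Oasl1 at 0. Their sum was 32.6, 37.4 and 36.4 CPM, against 1263 CPM or more in blood endothelial-like cells. Sums of the inner root sheath-like (16, 20.6 and 15.8 CPM) and hair shaft-like classes (1.39, 19.98 and 15 CPM), which build the hair, were lower still. The bulge or outer root sheath-like class (137, 1060 and 162 cells) had a sum of 39.0, 41.6 and 21.4 CPM with Bst2 at 12.3, 9.48 and 1.64 CPM. Suprabasal keratinocyte-like cells had Isg15 at 12, 5.10 and 3.44 CPM and a sum of 41.5, 37.8 and 25.6 CPM. Clusters led by Sostdc1 and Vsnl1 (35.0, 39.5 and 20.7 CPM) and by Skint6 and Jarid2 (28.2, 38.1 and 20.1 CPM) were also lowest with alopecia. The bulge or outer root sheath-like and suprabasal sums were also taken with every finer cluster, also unnamed ones, given the named class of its best marker score. The Sostdc1 Vsnl1 and Skint6 Jarid2 clusters have no cells in that setting, so their sums were not checked there. That of the bulge or outer root sheath-like class against wild type then changed direction (log2 0.26), and the suprabasal one was no longer called (log2 -0.40).

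**Figure D4:**
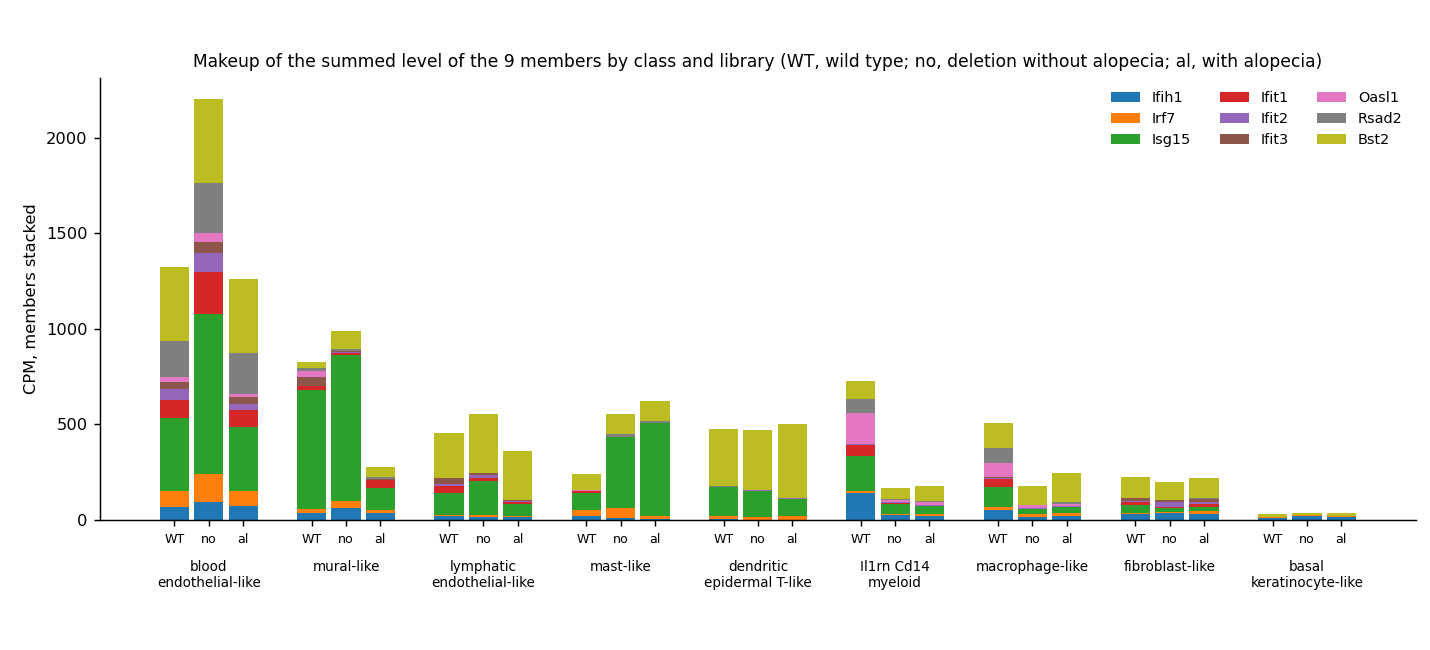
Summed level of the 9 members in CPM (stacked bars, 1 colour per member) in selected classes for wild type (WT), no alopecia (no) and alopecia (al). Blood endothelial-like cells hold all members, mast-like cells mostly Isg15, dendritic epidermal T-like cells mostly Bst2, and wild-type myeloid classes a large share of Ifih1 and Oasl1.

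The other genes of the pathway were taken from lists of 112 genes, of which 89, 89 and 91 could be measured over all CD45-positive cells in the comparisons of alopecia with no alopecia, no alopecia with wild type, and alopecia with wild type. Of these 6, 3 and 3 were higher, against 6.87%, 7.45% and 7.85% of all genes, and 0, 13 and 8 were lower, against 5.63%, 5.3% and 4.02%. The median log2 ratios of the list were 0.05, -0.16 and -0.08, beside 0.08, -0.02 and 0.07 over all genes tested. Of the ligands, interferon alpha genes were at or near 0 UMIs in every library. Ifnb1, the interferon beta gene, had 22, 0 and 4 UMIs in the CD45-positive sort, 15 of the 22 in the wild-type Il1rn Cd14 cluster and in 7 cells, and none in the CD45-negative sort. Ifnk, a keratinocyte interferon, stood at 0.604, 0.434 and 0.167 CPM in the CD45-negative sort, on 14, 44 and 6 UMIs, of which 11 of the wild-type UMIs were in 1 cell. Ifng, the interferon gamma gene, stood at 130.3, 62.6 and 70.7 CPM in the CD45-positive sort, highest in wild type. Of the receptor chains, Ifnar2 stood at 89.6, 141 and 135 CPM in CD45-positive and 44.6, 88.3 and 62.6 CPM in CD45-negative cells, wild type being lowest in both sorts, while Ifnar1 stood at 133, 131 and 121 CPM and at 20.1, 20.8 and 18.4 CPM. Of the signalling genes, Stat2, which encodes a transcription factor of the pathway, stood at 29.9, 31.2 and 30.7 CPM in CD45-positive cells.

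In the Il1rn Cd14 cluster 22 of 71 measured pathway genes were lower and 2 higher without alopecia than in wild type, against 9.26% and 3.16% of all genes. With alopecia 19 of 77 were lower and 1 higher, against 6.25% and 3.81%. The list's median log2 ratios were -0.46 and -0.28, beside -0.11 and 0.01 over all genes tested. Ly6e, an interferon-induced surface protein that hinders virus entry, went from 604 CPM in wild type to 49.8 and 59.1 CPM, 12.1-fold (9.67 to 15.4) and 10.2-fold lower. Ly6e was also lower than in wild type in 13 of 14 and 16 of 18 CD45-positive classes, so its difference was not confined to this cluster. Ifi203, of a family of DNA-binding interferon-induced proteins, went from 105 to 26.2 CPM without alopecia, and Oasl2 from 16.9 to 4.38 CPM with alopecia. In macrophage-like cells 14 of 67 pathway genes were lower and 2 higher without alopecia, against 5.85% and 3.41% of all genes. With alopecia 8 of 77 were lower and 2 higher, against 7.21% and 7.57%, and the median of -0.12 lay near that of all genes, 0.03. In blood endothelial-like cells 21 of 71 were lower and 2 higher with than without alopecia, against 8.13% and 11.4% of all genes, with a median log2 ratio of -0.30 beside 0.08. Among them Ifi207 went from 45.9 to 7.62 CPM, 6.02-fold lower, Socs3, a brake on Jak kinases, from 1197 to 476 CPM, and Jak2 from 332 to 140 CPM. Of a list of 23 interferon gamma genes, 11 of 22 measured were lower in the same comparison (8.13% of all genes), with a median of -0.59. Without alopecia against wild type, 8 of 70 pathway genes were higher and 3 lower in these cells, against 4.8% and 5.91% of all genes.

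Across class and library units of at least 50 cells, the genes most like the mean of the 9 members were found by Pearson correlation of log2(CPM + 1). In the CD45-negative sort, over 60 units and 11601 genes, they were Gbp3 (0.911), Rtp4 (0.909), Ifi47 (0.902), Rnf213 (0.894), Gbp5 (0.888), Gbp6 (0.885), Iigp1 (0.881), Igtp (0.876), Parp14 (0.871) and Slfn5 (0.870). In the CD45-positive sort, over 63 units and 10830 genes, they were Stat2 (0.770), Ctsz (0.753), Hexa (0.747), Sod1 (0.741), Ifi204 (0.727), Hpcal1 (0.726), Sh3bgrl (0.713), Npc2 (0.710), Ftl1 (0.704) and Nav1 (0.702). The units share libraries and classes, so these values are descriptions. Gbp3, Gbp5, Gbp6, Ifi47, Iigp1 and Igtp encode interferon-induced GTPases, while most of the CD45-positive genes after Stat2 are known from other roles, such as the lysosomal enzymes of Ctsz and Hexa. Among the members themselves, Ifit2 with Ifit3 (0.905), Ifit2 with Bst2 (0.841) and Ifit1 with Ifit3 (0.828) were closest in the CD45-negative sort. Oasl1 was closest to Rsad2 there (0.795), and Ifih1 with Oasl1 was low (0.168). In the CD45-positive sort Oasl1 with Rsad2 (0.723), Ifih1 with Ifit1 (0.674) and Isg15 with Bst2 (0.624) were high, and Ifih1 with Irf7 was negative (-0.252).

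**Figure D5:**
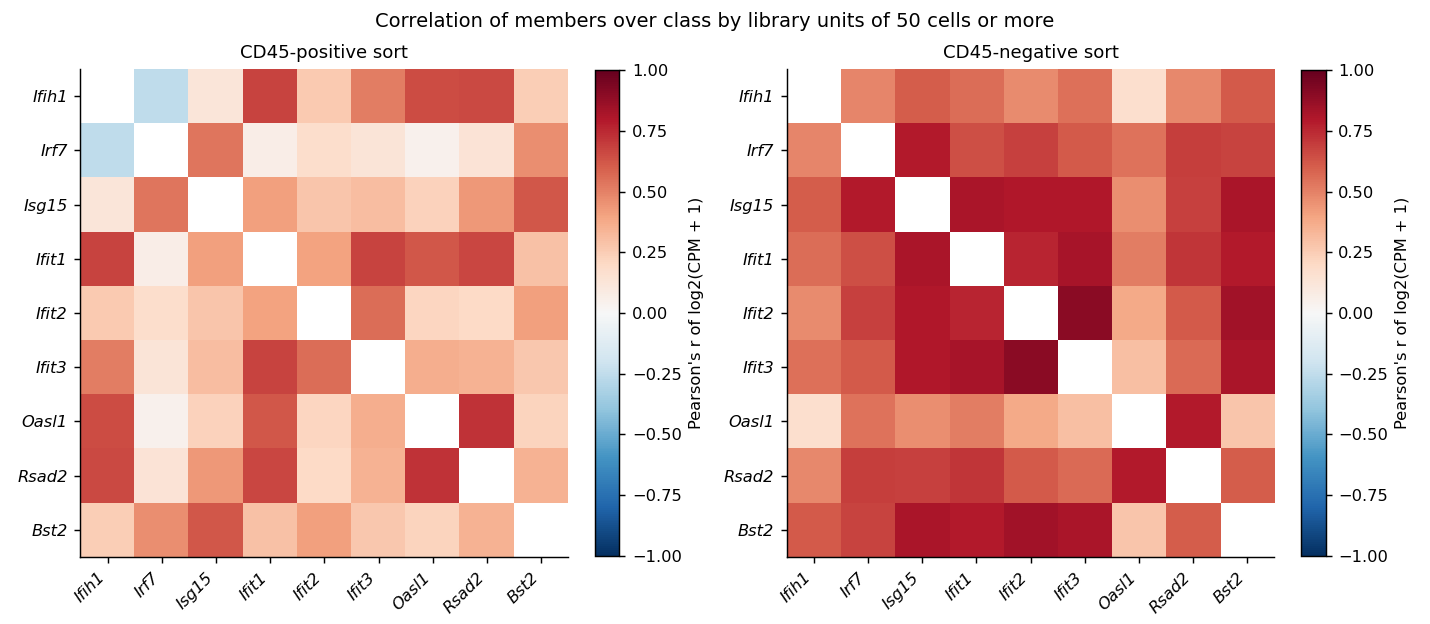
Pearson correlation of log2(CPM + 1) between each pair of members over class and library units of at least 50 cells, 1 panel per sort, from -1 (blue) to 1 (red). Oasl1 and Rsad2 go together in both sorts (0.795 and 0.723), while Ifih1 and Irf7 have a negative value in the CD45-positive sort (-0.252).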

How the data were processed

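The deposited matrices hold raw UMI counts per gene and cell for 6 single-cell 5' libraries. They were made with Cell Ranger 7.1.0 on mm10, per the submitters' processing notes; alignment settings are not given in the sources used here. Cells with at least 500 UMIs, 300 genes and at most 10% mitochondrial UMIs were kept. Scrublet scores ranked doublets, and since its automatic threshold marked at most 4 barcodes per library, the top 0.4% per 1000 barcodes were removed. Each sort was clustered (scanpy 1.11.5, leidenalg 0.10.2, with 2000 variable genes, 30 components, resolution 1) and clusters were named by marker lists. At the alternative resolution of 2, every finer cluster took the named class of its best marker score. Clusters left unnamed in the main results thus joined named classes there, so values at that resolution also reflect the naming. Counts were summed per class and library and divided by total UMIs. Ratios have exact conditional binomial 95% intervals, levels exact Poisson ones and shares Clopper-Pearson ones (scipy 1.17.1); UMIs of the same cell are not independent, so these are narrow. A class was compared where each library gave it 100 cells or more. Genes at 0 were set to a floor of 3 counts per library. Classes with a called sum, or with 1 of the 4 highest sums of a sort, are described in full; up to 3 pathway genes each way could be named, by the interval bound nearer to 1. Counts were also simulated as Poisson draws of the class sums, without clumping of UMIs in cells or spread between animals. Of 2-fold changes, 91.9% were called over all CD45-positive cells (16448 genes). In the Il1rn Cd14 cluster (9122) it was 81.7% and in blood endothelial-like cells (8997) 76.4%. Of unchanged genes 0.855%, 2.15% and 2.35% were called. These rates hold for counting error only and are not rates of false calls in the data. The members and gene lists were chosen with earlier results of these data known. The values of 1 pathway gene are not reported here.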

Additional observations from a re-analysis of the deposited data

Results flagged for a closer look

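These members, and their sum, were called in opposite directions in different classes under the same comparison. Each value is a log2 ratio, the highest and the lowest called, and the difference between classes was not tested.

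With against without alopecia, Bst2 was 0.65 in macrophage-like cells and -2.53 in the bulge or outer root sheath-like class, where the alopecia library had 2 UMIs. Ifit1 was 2.40 in fibroblast-like cells and -1.28 in blood endothelial-like cells. Irf7 was 1.03 in fibroblast-like cells and -1.65 in mast-like cells. Isg15 was 2.30 in the Klra1 Klra7 lymphoid cluster, where the no-alopecia library had 2 UMIs, and -2.06 in melanocyte-like cells.

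With alopecia against wild type, Bst2 was 0.81 in the Dcn Col1a1 fibroblast-like class of the CD45-positive sort and -1.44 in the Sostdc1 Vsnl1 keratinocyte cluster. Ifih1 was 3.26 in the Dcn Col1a1 fibroblast-like class and -2.74 in the Il1rn Cd14 myeloid cluster. Ifit1 was 2.68 in the Dcn Col1a1 fibroblast-like class and -5.01 in macrophage-like cells. Isg15 was 2.46 in mast-like cells and -2.18 in melanocyte-like cells. The sum of the 9 members was 1.38 in mast-like cells and -2.02 in the Il1rn Cd14 myeloid cluster.

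Without alopecia against wild type, Ifih1 was 2.86 in the Dcn Col1a1 fibroblast-like class and -2.35 in the Il1rn Cd14 myeloid cluster. Ifit1 was 2.65 in the Dcn Col1a1 fibroblast-like class. In macrophage-like cells, where the no-alopecia library had no UMI, it was -3.36 with a floor of 3 UMIs. Irf7 was 1.09 in the Tnfaip6 Ccl7 stromal cluster and -0.88 in conventional dendritic-like cells. Isg15 was 2.08 in mast-like cells and -2.72 in the Klra1 Klra7 lymphoid cluster. Oasl1 was 0.81 in blood endothelial-like cells and -3.58 in the Il1rn Cd14 myeloid cluster. The sum was 1.21 in mast-like cells and -2.12 in the Il1rn Cd14 myeloid cluster.

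These comparisons share libraries: the wild-type Dcn Col1a1 fibroblast-like class, with 2 UMIs each of Ifih1 and Ifit1, enters all of its ratios.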

How the results depend on the processing

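Of 164 recomputed log2 ratios of the 17 sums in the whole sorts and the 6 classes described first, 117 moved within the counting interval, 47 moved further, and none of the called sums changed direction. Of the sums not called, 4 values changed sign: no alopecia against wild type over CD45-negative cells, -0.07 as reported, was 0.22 with trimmed-mean scaling and 0.061 as a mean over cells, and alopecia against no alopecia over CD45-positive cells, -0.0053 as reported, was 0.0021 with doublets at 0.8% and 0.017 without mitochondrial and ribosomal-protein genes in the totals. Of 783 for 83 single members and smaller classes, 696 stayed, 83 moved and 4 turned. Over both sets 53 further values were not given, because a class had under 20 cells or a pair under 20 UMIs in that setting. Clusters left unnamed, among them the Il1rn Cd14 cluster, had no cells at resolution 2, so their values were not recomputed there. Those that turned were the bulge or outer root sheath-like sum (alopecia against wild type, 0.26 at Leiden resolution 2) and, in conventional dendritic-like cells, Ifih1 without alopecia against wild type (0.13 without cells with T-cell RNA), Irf7 in that comparison (0.29 as a mean over cells) and Ifit1 between the deletion libraries (-0.37 at resolution 2); the cause was not tested. No paired analysis was possible because each group has 1 library per sort and the labels carry no replicate numbers.

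The sums that moved further were these, as log2 ratios with no alopecia against wild type first and alopecia against wild type next, unless named otherwise. With at most 1 UMI of each member per cell, an alternative chosen after seeing the data, they were -0.28 and -0.30 over CD45-positive cells, -1.30 and -1.07 in the Il1rn Cd14 cluster, -0.85 and -0.59 in macrophage-like, -0.46 and -0.61 in Langerhans-like and 0.56 and 0.20 in mast-like cells. In conventional dendritic-like cells the first was -0.45, and in blood endothelial-like cells it was 0.49, with -0.51 for alopecia against no alopecia. Without cells with T-cell RNA they were -2.48 and -2.47 in the Il1rn Cd14 cluster, -2.67 and -2.09 in macrophage-like and 1.67 and 1.96 in mast-like cells, and -0.16 for alopecia in Langerhans-like cells. As means over cells they were -2.41 and -2.22 in the Il1rn Cd14 cluster, -2.04 and -1.44 in macrophage-like and -1.19 and -1.06 in Langerhans-like cells, and the first was 0.76 in mast-like cells. At resolution 2, where unnamed clusters joined named classes, they were 0.62 and 0.69 in mast-like cells. In that setting they were -1.13 for no alopecia in conventional dendritic-like cells and -1.23 for alopecia in macrophage-like cells. In blood endothelial-like cells they were 0.42 for no alopecia and -0.49 for alopecia against no alopecia. Trimmed-mean scaling gave -0.52 for alopecia over CD45-positive cells and -0.93 for alopecia against no alopecia in blood endothelial-like cells. In those cells no doublet removal gave 0.40 and, between the deletion libraries, -0.62, where the main and second finer clusters, also chosen after seeing the data, gave -0.56 and -1.09. For no alopecia in the Il1rn Cd14 cluster the finer clusters gave -1.87 and -2.32. Over CD45-negative cells, no alopecia against wild type was -0.00779 with doublets at 0.8%, and alopecia against no alopecia, with doublets at 0.8%, trimmed-mean scaling and as a mean over cells, was -0.11, -0.29 and -0.18.

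At a 2-fold threshold the members called were 0 higher (alopecia against no alopecia) and 3 lower (alopecia against wild type) over CD45-positive cells, 0 lower without alopecia over CD45-negative cells, and 2 higher without alopecia in blood endothelial-like cells. With 1 library per group the spread between animals is unknown, classes of under 100 cells gave no ratio, and Ifit2 and Ifit3 were too scarce to compare in nearly all CD45-positive classes.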
